A study of Arabidopsis thaliana with 4 samples.

Results

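The 200 nuclear transcripts with the highest signal in wild-type Arabidopsis thaliana seeds held by abscisic acid were described, and their signal was set beside that of seeds of the mutant wrky43-1. Members were chosen by their wild-type signal among 16348 nuclear genes that had a probe set (a group of array probes read as 1 value) paired with that gene alone. A gene with several such sets was read from the brightest over all 4 arrays, and genes were ranked by the mean of both wild-type arrays. Genes of cytosolic ribosomal proteins, LEA proteins and dehydrins (late embryogenesis abundant proteins, which protect drying seeds), cupin storage proteins and oleosins were left out before the cut. This left out 21 genes that would have stood at or above the level of rank 200, of which 11 were ribosomal, 7 LEA or dehydrin and 3 cupin genes. The mutant seeds were of genotype wrky43-1, a mutant of the gene for the transcription factor WRKY43, and the seeds they were set against were the Ler-0 wild type (2 biological replicates each, 1 array per replicate). All 4 samples shared 1 treatment: 10 mg of dry seeds stood for 4 days in 0.5 MS, a liquid medium of plant nutrients, with 2 µM ABA (abscisic acid) added. A single mutant allele was tested. The study's title names WRKY43 as a regulator of polyunsaturated fatty acids and of stress tolerance in seeds, and the comparison asks which transcripts differ in the mutant.

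A mature seed holds stored messenger RNA made while it ripened on the plant. In water it begins to draw on protein and oil reserves, and ABA delays the emergence of the root while part of this programme goes on. Oil is turned into sugar through the glyoxylate cycle, storage proteins are cut by vacuolar proteases, and plastids and mitochondria resume work.

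The array medians lay between 4.34 and 4.43, on the log2 scale as which the deposited values were read. Of the seed genes fixed as markers of the labelled tissue, 6 of 13 had a probe set of their own. Among them the storage protein gene PAP85 read 12.63 and 12.70 in wrky43-1 against 12.89 and 12.83 in wild type, and the embryo gene M17 read 10.15 and 10.28 against 10.73 and 10.69. The seed transcription factor gene BZIP53 went the other way, with 8.29 and 8.14 in wrky43-1 against 7.60 and 7.76 in wild type, as did the dehydrin gene LTI30, with 5.88 and 5.89 against 5.49 and 5.62. EEL, another seed transcription factor gene, averaged 8.82 in wrky43-1 against 8.88 in wild type. OLEO3, for an oil body protein, averaged 7.17 against 7.26. The 6 seed markers thus did not move in 1 direction. The pollen gene VGD1 read 2.66 and 2.87 in wrky43-1 and 2.79 and 2.71 in wild type, while EXPA7 and EXPA18, of root hairs, lay between 2.62 and 3.24 on all arrays. Of the leaf genes, LHCB4.1, of the light-harvesting antenna, read 8.47 and 8.69 in wrky43-1 and 8.86 and 8.99 in wild type, and PRK, of carbon fixation, read 5.05 and 3.74 against 3.53 and 3.92, with overlap. These were 2 of 5 leaf markers. WRKY43 itself had no named probe set, which leaves the genotype labels without a direct check.

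The members ran from 9.81 to 13.24 in mean wild-type signal, with a median of 10.35, while the median nuclear gene stood at 3.88. On single arrays the median of the 200 was 10.20 and 10.28 in wrky43-1 and 10.36 and 10.34 in wild type. A signal also depends on how well the probes of a gene bind, so the ranks order array signals and not numbers of transcripts per cell. In these bulk samples fewer cells of a type and less RNA per cell cannot be told apart. At the lower end, AT5G18230 (9.82) and AT5G13370 (9.81) were the last inside, and SCPL49 (9.81) and AT2G20360 (9.80) the first outside, so the cut falls in a continuous range. Of the 1299 probe sets at or above the lowest member in wild type, 936 were paired with no gene and 49 with several, so the list covers only the named part of the most abundant transcripts. All 200 members are annotated as protein coding, and 155 of them have only a locus code or clone name in the reference used here. These are given by code without a role.

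**Figure D1:**
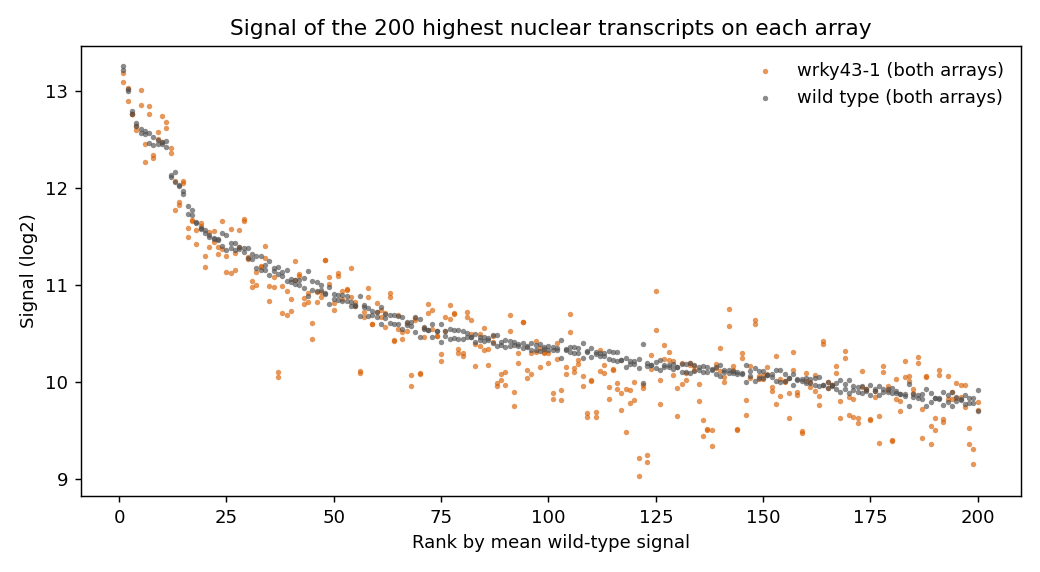
Signal of the 200 members (log2, vertical axis) against their rank by mean wild-type signal (horizontal axis), with a point for each array: wrky43-1 in orange and wild type in grey. The signal drops steeply over the first ranks, from 13.24 at rank 1 in mean wild-type signal to 9.81 at rank 200, and the points of wrky43-1 scatter to both sides of the wild-type points.

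The highest member was AT2G07741, with 13.09 and 13.19 in wrky43-1 and 13.26 and 13.22 in wild type. Its locus code falls in the stretch of chromosome 2 where a large copy of mitochondrial DNA is inserted, so RNA of the mitochondrial copies and of the nuclear insertion cannot be told apart. In all 12 members came from this stretch, of 49 nuclear genes measured there. They included AT2G07751 (rank 10), AT2G07732 (13), AT2G07773 (14) and AT2G07707 (15), and 3 of the 12 had values identical to another probe set. Their differences were not alike. AT2G07689 read 10.11 and 10.06 in wrky43-1 against 11.12 and 11.19 in wild type, the largest negative difference of all 200 (-1.07, SE 0.12, limma adjusted p = 0.157). AT2G07749 read 10.07 and 9.97 in wrky43-1 against 10.58 and 10.62 in wild type, while AT2G07678 read 11.40 and 11.29 against 11.21 and 11.16. For both the groups did not overlap, in opposite directions, and neither passed the threshold (limma adjusted p = 0.198 for AT2G07749 and 0.579 for AT2G07678). Of the 12, 8 read lower and 4 higher, with a median log2 difference of -0.15.

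The members with a gene name were grouped by role by hand after the names had been read, so counts within these groups describe the named members and not the processes. Role and gene length, which is described below, were not separated. As background to counts without overlap, both wrky43-1 arrays lay below both wild-type arrays for 25.0% of all nuclear genes and for 47.5% of the 200 members. Carbon metabolism supplied the highest member with a gene name. ICL, isocitrate lyase of the glyoxylate cycle that turns stored oil towards sugar, ranked at 2 with 12.90 and 13.03 in wrky43-1 and 13.01 and 13.02 in wild type, and the groups overlapped. ALDH11A3, a non-phosphorylating glyceraldehyde-3-phosphate dehydrogenase, read 10.48 on both wrky43-1 arrays and 10.53 on both wild-type arrays, and cICDH, the cytosolic isocitrate dehydrogenase that makes NADPH, read 10.16 and 10.35 against 10.39 and 10.33. MAB1, a subunit of mitochondrial pyruvate dehydrogenase, read 9.97 and 9.98 in wrky43-1 and 9.97 on both wild-type arrays. The means of these 4 genes thus differed by at most 0.10 on the log2 scale between genotypes. Larger differences were seen for PWD, which phosphorylates starch, with 9.58 and 9.63 in wrky43-1 against 9.91 and 9.95 in wild type. F2KP, which sets the level of fructose-2,6-bisphosphate, read 9.36 and 9.53 against 9.79 and 9.84. Their log2 differences of -0.32 (SE 0.12) and -0.37 (SE 0.13) did not pass (limma adjusted p = 0.303 and 0.291). Of the 7 members of this group, GME of ascorbate and cell wall sugar synthesis included, 5 read lower and 2 higher, and 0 passed. The 2 higher ones, GME and MAB1, turned negative when the arrays were quantile-normalized or centred on the same median.

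PYK10, a beta-glucosidase stored in ER bodies (spindle-shaped compartments of the endoplasmic reticulum that arm seedlings against attack), ranked at 3. Its signal was 12.77 on both wrky43-1 arrays, and 12.76 and 12.79 in wild type. NAI2, a protein needed to form these bodies, read 11.55 and 11.40 in wrky43-1 and 11.52 and 11.50 in wild type. BGLU44, another beta-glucosidase, read 10.47 and 10.56 against 10.55 and 10.57. For all 3 the arrays of the genotypes overlapped, and their log2 differences lay between -0.05 and -0.01 with SEs of 0.11 to 0.13.

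Genes for cutting or clearing proteins made up 9 of the named members. APA1, an aspartic proteinase, read 11.14 and 11.31 in wrky43-1 against 11.36 and 11.52 in wild type. BETA-VPE, a vacuolar processing enzyme that cuts storage proteins in seeds, read 10.72 and 10.99 against 11.10 and 11.14. In both genes every wrky43-1 array lay below every wild-type array, by log2 differences of -0.22 (SE 0.14) and -0.26 (SE 0.15) that did not pass (limma adjusted p = 0.51 and 0.46). TPP2, tripeptidyl peptidase II, which trims peptides released by the proteasome, had the largest difference of the group, with 9.83 and 9.89 in wrky43-1 and 10.36 and 10.34 in wild type (log2 difference -0.49, SE 0.12, limma adjusted p = 0.211). RPN12a, a subunit of the proteasome lid, read 9.93 on both wrky43-1 arrays, and 9.91 and 9.94 in wild type. The ubiquitin receptor DSK2a read 9.66 and 9.85 against 9.90 and 10.02, and MPPBETA, of the mitochondrial processing peptidase, read 9.87 and 9.90 against 10.04 and 10.02. For scpl35, a serine carboxypeptidase-like gene, SPP, signal peptide peptidase, and ATSTE24, a protease for prenylated proteins, the log2 differences were -0.10, -0.02 and -0.05. Of the 9, 8 read lower, 7 of them with no overlap, and 0 passed the threshold.

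The 5 named members known to handle RNA had negative log2 differences, with a median of -0.19, and 0 of them passed. The lowest was VCS, the scaffold of the complex that removes the cap of messenger RNAs, with 10.10 and 10.12 in wrky43-1 and 10.69 and 10.89 in wild type. At -0.68 (SE 0.13, limma adjusted p = 0.186) its log2 difference was the largest in size of the 45 named members. PRH75, a nuclear RNA helicase, read 11.33 and 11.39 against 11.47 and 11.48. MAC3B, of a complex that associates with the spliceosome, read 10.30 and 10.27 against 10.53 and 10.45, and RBP45B, an RNA-binding protein, 10.18 and 10.34 against 10.44 and 10.46. Its relative ATRBP45C read 10.01 and 10.02 in wrky43-1 and 10.09 and 10.02 in wild type, where the arrays overlapped.

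Of the transcriptional regulators, DI19, a zinc-finger gene induced by drought, was the highest, with 11.61 and 11.64 in wrky43-1 and 11.58 and 11.59 in wild type. The log2 difference of DI19, 0.04, turned negative under both other scalings. SEU, a transcriptional co-regulator of flower development, read 9.51 and 9.52 in wrky43-1 and 10.11 and 10.09 in wild type. The gap between its groups was far wider than between the arrays of a genotype, yet at a log2 difference of -0.58 (SE 0.11) it did not pass (limma adjusted p = 0.185). BIM1, a partner of brassinosteroid-regulated factors, read 9.78 and 9.92 against 10.23 and 10.19 (log2 difference -0.36, SE 0.12, limma adjusted p = 0.292).

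Plastid members held TROL, which anchors a ferredoxin reductase to the thylakoid, with 10.99 and 11.08 in wrky43-1 against 11.18 and 11.15 in wild type. ATNTT2, which brings ATP into plastids, read 10.70 and 10.94 against 11.16 and 11.05 (log2 difference -0.29, SE 0.14, limma adjusted p = 0.42). ATOEP16-2, a channel of the outer plastid envelope found in seeds, read 10.53 and 10.67 against 10.53 and 10.48. PSBW, a small subunit of photosystem II, read 10.36 and 10.12 against 10.18 and 10.07, with overlap. So 2 of the 4 read lower and 2 higher, and ATOEP16-2 turned negative with quantile normalization.

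Members for signalling and traffic included SEC31B, of the COPII coat that carries proteins out of the endoplasmic reticulum, with 9.65 and 9.69 in wrky43-1 against 10.29 and 10.31 in wild type. SEC31B thus had a log2 difference of -0.63 (SE 0.11, limma adjusted p = 0.176), while RAB6A, a Golgi GTPase, had 0.16 (SE 0.13) and CKA4, the plastid alpha subunit of casein kinase 2, had 0.11 (SE 0.14). CKA4 turned negative with quantile normalization. In lipid metabolism FATB, the thioesterase that releases saturated fatty acids from the plastid, read 9.38 and 9.66 in wrky43-1 and 9.87 and 9.97 in wild type (log2 difference -0.40, SE 0.15, limma adjusted p = 0.315). LCB2, a subunit of the enzyme that starts sphingolipid synthesis, read 10.08 and 10.23 against 10.14 and 10.19, with overlap.

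Of 5 members for redox, sulfur and aldehyde metabolism, STR18, a sulfurtransferase, read 10.72 and 10.68 in wrky43-1 against 10.51 and 10.47 in wild type. GLY2, a glyoxalase that clears methylglyoxal, read 10.23 and 10.32 against 10.16 and 10.18. The peroxidase gene PRXR1 read 9.78 and 10.02 against 10.13 and 10.23, while CBL of methionine synthesis (log2 difference -0.04) and ALDH10A8, an aldehyde dehydrogenase (-0.12), overlapped between genotypes. The defensin gene LCR69 read 10.70 and 10.53 against 10.43 and 10.38, a log2 difference of 0.21 (SE 0.13). With STR18, also at 0.21, it had the largest positive difference among the named members. The rest were CCL (0.09), RD2 (-0.03) and CP5 (-0.24). Of the 45 named members 33 read lower and 12 higher, where 52.5% of all nuclear genes read lower. Of the 12, 7 changed sign under quantile normalization or centring. The median log2 difference of all nuclear genes also fell, from -0.01 to -0.04 with quantile normalization and to -0.09 with centring. Centring moved every gene down by the same amount, which took MAB1 from 0.01 to -0.07.

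**Figure D2:**
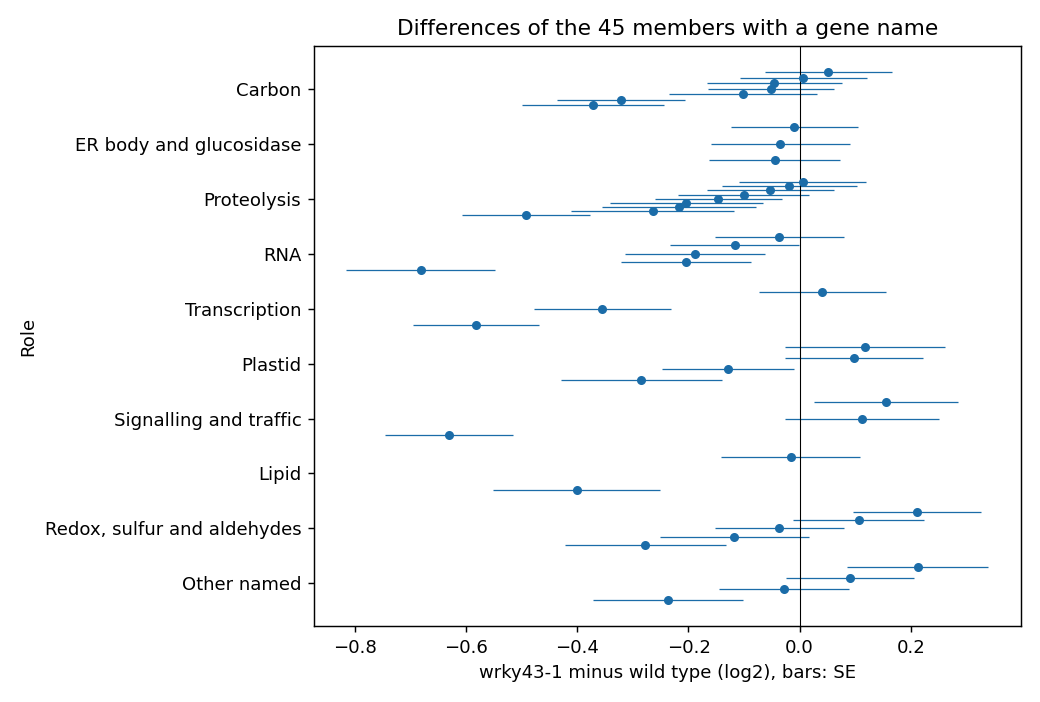
Log2 difference, wrky43-1 minus wild type, of the 45 members with a gene name (horizontal axis), by role (vertical axis), with the SE of the limma fit as bars. The ER body and glucosidase genes sit between -0.05 and -0.01, the 5 RNA genes lie left of 0, and VCS at -0.68 is the leftmost point.

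Among members with only a locus code, several of the highest were close between genotypes. AT1G07080 (rank 4) read 12.60 and 12.65 in wrky43-1 and 12.64 and 12.67 in wild type, and AT4G27130 (rank 9) read 12.51 and 12.58 against 12.46 and 12.50. Others differed by more than the spread of their arrays. AT5G01670 (rank 20) read 11.19 and 11.31 against 11.57 and 11.54, AT1G54870 (rank 6) 12.28 and 12.46 against 12.56 and 12.60, and AT3G47650 (rank 12) 12.41 and 12.37 against 12.12 and 12.14. None of the 3 passed (limma adjusted p = 0.329, 0.5 and 0.367). The other members among the 20 highest, AT3G07850, AT5G66780, AT1G24851, AT5G19510 and AT3G54940, had log2 differences between -0.23 and 0.20.

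Over all 200 members, 0 passed a limma adjusted p under 0.05 (Benjamini-Hochberg over all 38408 probe sets), and the smallest adjusted p was 0.157. The background was 0.0% of the 16348 nuclear genes. At an unadjusted p under 0.05, 28 members (14%) read lower in wrky43-1 and 9 (4.5%) higher, where 6.1% of all nuclear genes read lower and 5.45% higher. Both wrky43-1 arrays lay below both wild-type arrays for 95 members (47.5%) and above them for 49 (24.5%), where the shares over all nuclear genes were 25.0% and 21.7%. The ranking used the wild-type arrays of this same contrast and so favours genes that happened to read high there. These counts are therefore a description, and the lower side is read with that in mind.

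The log2 difference was under 0.5 in size for 182 of the 200 members (91.0%), near the 93.5% of all nuclear genes. Its median was -0.06, and 124 members read lower and 76 higher. The median over all nuclear genes was -0.01. Between the replicates, the median difference of the 200 was -0.06 between wrky43-1 replicate 1 and replicate 2 and 0.02 between the wild-type arrays. Between genotypes the median was -0.12 and -0.09 for wrky43-1 replicate 1 against wild-type replicates 1 and 2, and -0.05 and -0.02 for wrky43-1 replicate 2. The pairs with wrky43-1 replicate 1 thus went past the difference between the wrky43-1 arrays, and those with replicate 2 did not. The split of 124 lower (62.0%) and 76 higher became 150 (75.0%) and 50 after all arrays were centred to 1 median. With quantile normalization it was 159 (79.5%) and 41, and the medians were -0.13 and -0.17. All nuclear genes moved down as well. Of them 52.5% read lower as deposited, 65.2% when centred and 56.6% with quantile normalization, with medians of -0.01, -0.09 and -0.04. The next 200 genes by wild-type signal had a median log2 difference of -0.04, and at an unadjusted p under 0.05 they held 33 lower and 14 higher.

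The ranking was also changed. Ranked by wild-type replicate 1 alone, with the difference taken against wild-type replicate 2, the top 200 had a median of -0.05, and with the replicates exchanged it was -0.10. Ranked by both wrky43-1 arrays, the median was 0.01, and at an unadjusted p under 0.05 this list held 23 higher and 14 lower genes in place of 9 and 28. Ranking by the arrays that also enter the difference leans it towards their own genotype, so this last list is no check on the direction.

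The spread between replicates was narrow at this signal. The median SD of the 200 was 0.06 in wrky43-1 and 0.0367 in wild type (n = 2 each), against 0.11 and 0.10 over all nuclear genes. The fit draws each gene's variance towards that of all probe sets, so the median SE of a difference was 0.12 for the members and 0.14 for all nuclear genes. When the variance prior was allowed to follow intensity, AT2G07689, AT3G50370 and AT1G02080 passed as lower (limma adjusted p = 0.0371, 0.0444 and 0.0372) and 0 members as higher.

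**Figure D3:**
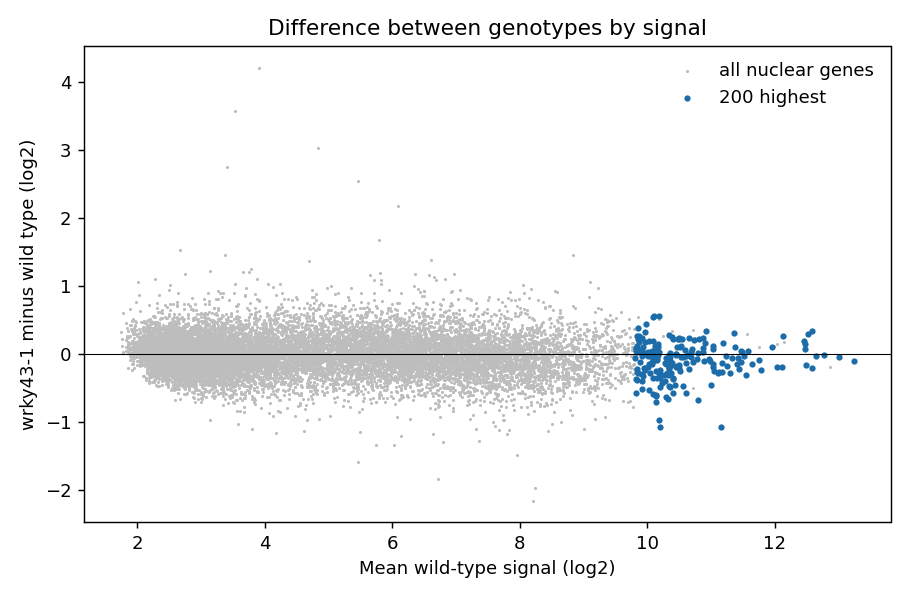
Log2 difference, wrky43-1 minus wild type (vertical axis), against mean wild-type signal (log2, horizontal axis) for all 16348 nuclear genes in grey and the 200 members in blue. The members end the range at 9.81 and above and lie between -1.07 and 0.56, while the whole set spans -2.15 to 4.21.

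Of the 200 members, 173 (86.5%) were also among the top 200 of wrky43-1. For comparison, the top 200 of the wild-type replicates shared 190 genes and those of the wrky43-1 replicates 184. On each of the 4 arrays 166 members were in the top 200. Of the first 20 members 18 were in the first 20 of wrky43-1. The 27 that dropped out stood at rank 109 or below in wild type, and AT3G50370 moved farthest, to rank 401 in wrky43-1 against rank 121 in wild type. SEU, FATB, PWD, F2KP, CP5, DSK2a and SEC31B were among them. The 27 genes that took their place included KIN2, a gene induced by cold and ABA, at rank 150 in wrky43-1 against rank 308 in wild type (9.98 against 9.41 in mean signal). AT2G01023 stood at rank 91 against rank 586 (10.29 against 8.84). Genes that enter or leave a list are those that differ most, so these shifts carry no test.

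The 10 members with the largest negative differences and no overlap between the genotypes ran from -1.07 to -0.58 on the log2 scale, with SEs of 0.11 to 0.13. After AT2G07689 came AT3G50370, with 9.22 and 9.04 in wrky43-1 and 10.15 and 10.24 in wild type (log2 difference -1.07, SE 0.13, limma adjusted p = 0.157). AT1G02080 read 9.25 and 9.18 against 10.17 and 10.20 (-0.97, SE 0.12, limma adjusted p = 0.157). AT4G28080 followed at -0.70, and VCS, AT4G01290 (-0.66), SEC31B, AT3G07660 (-0.62), AT2G25970 (-0.61) and SEU completed the 10. Their adjusted p ran from 0.157 to 0.201 in limma, so no member is called lower.

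On the positive side the 10 ran from 0.29 to 0.56, and none of them has a gene name. AT4G26710 read 10.94 and 10.55 in wrky43-1 against 10.21 and 10.15 in wild type (log2 difference 0.56, SE 0.18, limma adjusted p = 0.266). Its wrky43-1 arrays lay farther apart than its wild-type arrays, and without wrky43-1 replicate 1 its difference was 0.36. AT2G20835 read 10.75 and 10.58 against 10.10 and 10.13 (0.56, SE 0.13, limma adjusted p = 0.211). AT3G20370 read 10.60 and 10.64 against 10.15 and 10.02 (0.54, SE 0.12), and its neighbour in the reference, AT3G20362 (rank 5), read 12.86 and 13.01 against 12.57 and 12.61 (0.34, SE 0.13). A further probe set of AT3G20362 gave 0.43. These 2 genes and the insertion genes AT2G07707 and AT2G07708 were the only pairs of protein-coding neighbours among the 200. AT1G10590 (0.43), AT1G30880 (0.37), AT5G07330 (0.34), AT2G26210 (0.33), AT2G35750 (0.31) and AT3G63052 (0.29) completed the 10. No overlap was the condition for this list. AT5G07330 read 11.26 on both wrky43-1 arrays and 10.92 on both wild-type arrays. The positive 10 had limma adjusted p from 0.211 to 0.353.

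**Figure D4:**
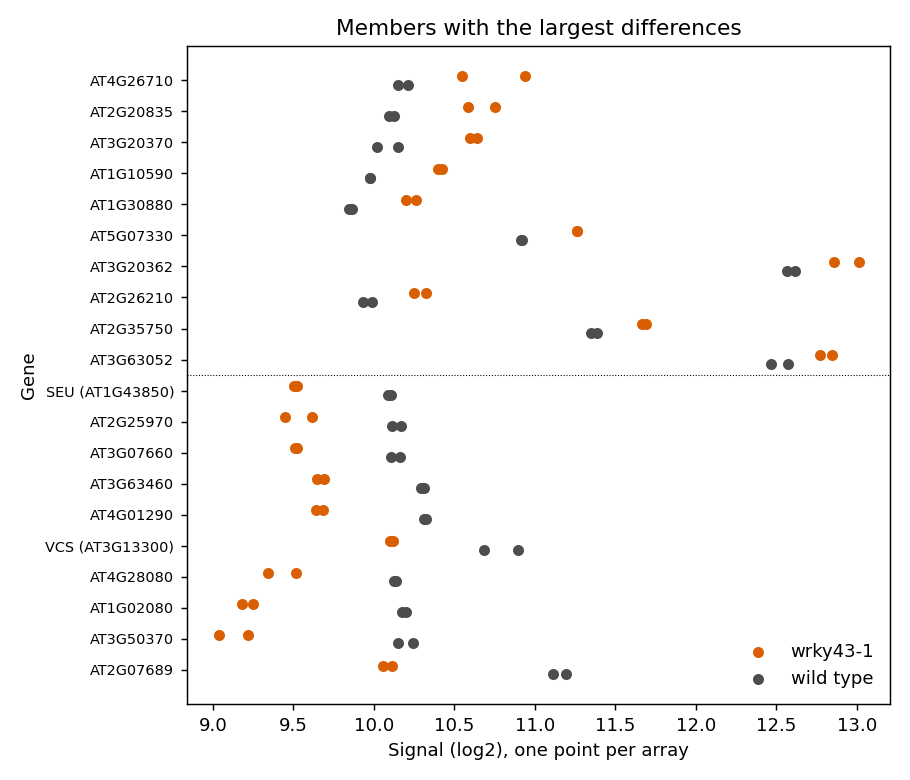
Signal (log2, horizontal axis) on each array for the 10 members with the largest positive and the 10 with the largest negative differences (vertical axis), wrky43-1 in orange above wild type in grey. In every row the points of the genotypes are apart, by 0.29 to 0.56 in the upper 10 and by 0.58 to 1.07 in the lower 10 between means.

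Gene length, which the ranking did not use, ran with the direction of the difference. Of the 10 largest negative differences 9 belonged to genes that span 4000 bp or more in the reference, introns included, among them AT1G02080 with 13579 bp and AT4G28080 with 9505 bp. The exception was AT2G07689 with 645 bp. The 10 largest positive ones came from genes of 398 to 2300 bp. Over the 38 members of 4000 bp or more the median log2 difference was -0.37, with 35 lower and 3 higher. Over the 162 shorter members it was -0.03, with 89 lower and 73 higher. The 1556 nuclear genes of that length had a median of -0.19, with 78.9% lower. For the long members the medians of the 4 pairs of arrays of different genotype ran from -0.47 to -0.32, against -0.07 between the wrky43-1 arrays and -0.02 between the wild-type arrays. At an unadjusted p under 0.05, 22 of the 28 lower members were of 4000 bp or more and 0 of the 9 higher ones. The lower ones included 7 named members, VCS, SEU, SEC31B, TPP2, PWD, F2KP and BIM1, and all 7 were of 4000 bp or more. No named member read higher at this threshold. Of all nuclear genes of that length, 24.0% read lower and 0.578% higher at this threshold.

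Within length bins the same order was seen. The median log2 difference was 0.12 over the 20 members under 1000 bp, 0.01 over 46 of 1000 to 2000 bp, -0.05 over 96 of 2000 to 4000 bp, -0.34 over 34 of 4000 to 8000 bp and -0.84 over 4 of 8000 bp or more. The last bin holds few genes. The medians of all nuclear genes in these bins were -0.00294, 0.03, -0.02, -0.18 and -0.47. Across the 200 members Spearman's rho between length and difference was -0.55, and -0.19 across the 16348 nuclear genes, as descriptions over genes measured on the same 4 arrays. Members were longer than nuclear genes at large, with a median of 2585 bp against 1915.5 bp. The 27 genes that left the top 200 held 15 of 4000 bp or more, and the 27 that entered held 0. Of the 200 members 38 were of that length, and of the 16348 nuclear genes 1556. The genes that left all read lower in wrky43-1 and those that entered all read higher, so these counts restate the differences by length. The part of gene length in these differences was not tested.

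**Figure D5:**
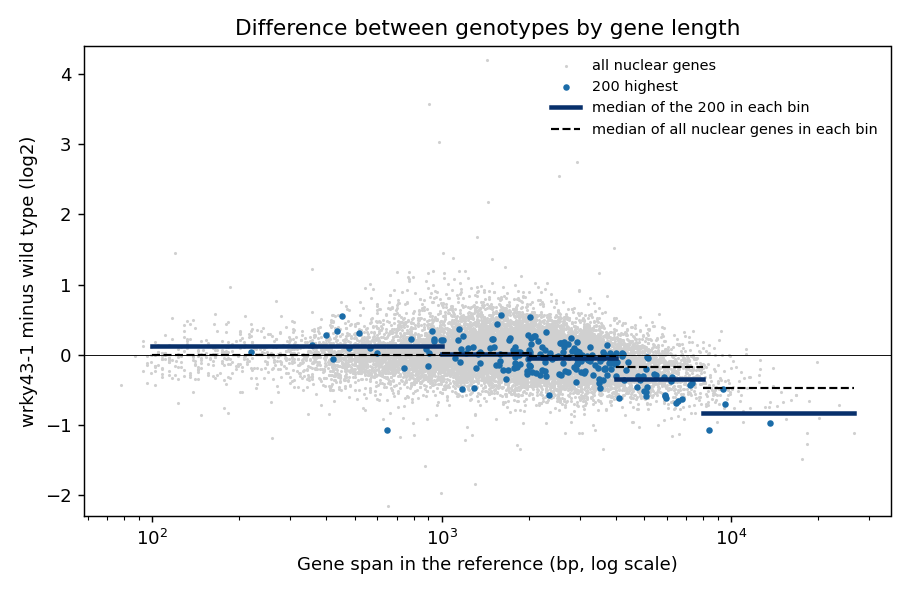
Log2 difference, wrky43-1 minus wild type (vertical axis), against gene span (bp, log axis), with members in blue and all nuclear genes in grey. Solid lines give the median of the members in each length bin and dashed lines that of all nuclear genes, and both are lowest in the last bin, at -0.84 and -0.47.

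By chromosome, 66 members lay on chromosome 1, 39 on chromosome 2, 39 on chromosome 3, 22 on chromosome 4 and 34 on chromosome 5. Chromosome 1 held 33.0% of the members and 26% of all nuclear genes measured, and chromosome 2, where the insertion adds 12, held 19.5% and 15.4%. Without the insertion the remaining 188 members had a median log2 difference of -0.05, with 26 lower and 9 higher at an unadjusted p under 0.05. All but 7 members had a single probe set of their own. For these 7 the further probe sets had the same sign as the one used. That of AT2G07707 had values identical to the one used, so its sign was fixed in advance. The further sets of AT2G07722 were identical to each other. All of the 7 but AT3G20362 lie in the insertion.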

How the data were processed

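The authors deposited 1 table of values for 38408 probe sets, which were read as log2 from their range of 1.18 to 14.27. Per the labels' protocols RNA came from a hot borate extraction and was labelled with biotin. Normalization and probe summary were not given in the sources used here, and no detection calls were used. Only the number of arrays can be given for precision. The replicates are biological per the series' design text.

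Gene names came from the array platform's annotation, possibly outdated, updated through TAIR10.1: 16722 had 1 gene, 759 several and 20927 none. That reference gives no product names, so the planned keyword classes matched 15 of 200 members. The 45 members with a name were grouped by hand after their names had been read. The families left out and the insertion loci were listed by locus code from general knowledge. The members and lists were chosen with earlier results of these data known. Genes were named if among the 20 highest, the 10 largest differences in each direction without overlap, bearing a name, or next to the cut.

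Differences were fitted in R 4.3.3 with limma 3.58.1 (lmFit, then eBayes, two-sided). Benjamini-Hochberg adjustment took in every probe set, the threshold was 0.05, and degrees of freedom were 2 residual and 2.34 prior. The step was run on simulated data, where the mean estimated changes were checked against those put in. How often such a change was called is not given here. The replicate numbers did not pair the arrays by the correlation of their deviations (-0.03). Promoter motifs and sequences were not used here. Alternatives are listed in the closing section.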

Additional observations from a re-analysis of the deposited data

How the results depend on the processing

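Counts of members at an unadjusted p under 0.05 moved with most settings. Refits over the probe sets of all 4 arrays called 0 members by limma's adjusted p in either direction. The exception was the intensity trend, which called 3 lower. Calls from the refit on the mean of all probe sets of a gene are not given here. Higher members (9 as reported) came to 4 under the replicate block, 3 with quantile normalization, 4 with centred arrays, 26 with the intensity trend, 23 when ranked by wrky43-1, 2 and 1 when ranked by a single wild-type replicate (1 and 2), 3 in the top 100 and 23 in the top 400. The lower members, 28 as reported, numbered 48 with quantile normalization, 59 with the intensity trend, 14 when ranked by wrky43-1, 17 and 15 when ranked by a single wild-type replicate, 9 in the top 100, 61 in the top 400 and 6 without members of at least 4000 bp, a choice made after seeing the data. Leaving out each array gave 0 to 0 calls in both directions, 1 to 3 higher and 15 to 21 lower members and a median of -0.10 to -0.05, where the remaining single array is taken to vary as the other genotype does. The median, -0.06 as reported, was -0.17 with quantile normalization, -0.13 with centred arrays and 0.0055, of the other sign, when ranked by wrky43-1. The top 100 held 100 of the 200, and the other rankings shared 173 to 200 with them. With the replicate block 22 members read lower, and with centred arrays 41. Without the lowest 50 percent of probe sets 38 read lower and 12 higher. With the mean of all probe sets of a gene 37 read lower and 9 higher. The shares of all nuclear genes, 6.1% lower and 5.45% higher, belong to the fit as reported. Those under the other settings are not given here, so the moved counts are no result about the members. The 20 largest differences kept their sign in all 180 combinations of gene and setting. Only quantile normalization could have changed a sign. Centring moved every difference down by the same amount, which took the smallest positive one of the list, AT3G63052, from 0.29 to 0.21. The other settings keep the same difference or leave out 1 array, which cannot turn groups chosen for no overlap. The 3 calls among these combinations all came from the intensity trend. Why the counts moved was not tested, but the single-replicate and leave-one-out fits have fewer arrays. The other list sizes hold fewer or more genes. Signal over background is unknown, which limits every level.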

Other observations

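The genes of the families left out of the list read differently from the members. Of the 21 that stood at or above the level of rank 200, 17 read higher in wrky43-1 and 4 lower, with a median log2 difference of 0.14, while 76 of the 200 members read higher and 124 lower, with a median of -0.06. Of all nuclear genes 47.5% read higher. Of these 21 genes 0 passed in limma. At an unadjusted p under 0.05 they held 3 higher (14.3%) and 1 lower (4.8%), against 5.45% and 6.1% of all nuclear genes. Their values under the other scalings are not given here. Their median length was 1724 bp, against 2585 bp for the members. The difference between these lists was not tested.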
